A study of Mus musculus with 30 samples.

Results

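The genes described here are 10 factors of the formative and primed epiblast: the transcription factors Otx2, Pou3f1, Foxd3, Zic2, Zic5, Sox3, Sall2 and Sox4, the growth factor Fgf5 and the tight junction protein Cldn6. They were chosen by name with earlier results of these data known, among them the raised Otx2 and Pou3f1 at day 0 and prolonged expression later. Every probe set that the platform annotation assigns to one of them was taken. This gave 22 of the 34958 probe sets with a single gene and 10 of the 18194 genes on the arrays. Where a gene had several probe sets, the one with the highest mean over all arrays stands for it, and the others are described beside it. The samples were mouse embryonic stem (ES) cells, the cultured counterpart of the early embryo's pluripotent cells, in which differentiation was begun by removing LIF, the cytokine that keeps them undifferentiated. Null cells, which lack Jmj, were measured on 20 arrays: 3 for day 0, 5 for each of days 2, 4 and 6, and 2 for day 8. Fl/Fl cells, whose floxed Jmj alleles are intact and which the labels call wild type, were measured on 10 arrays, 2 for each day. Jmj (Jumonji) is the older name of Jarid2, a partner of PRC2, which silences genes by methylating histone H3. The labels name neither the number of cell lines or clones nor the way in which the null cells were made.

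Pluripotent cells of the mouse pass from a naive state, that of the blastocyst and of ES cells kept with LIF, through a formative state to a primed state, that of the epiblast after implantation. Otx2 and Pou3f1 (also called Oct6) are early factors of the formative state, and Otx2 directs the transcription factor Oct4 to new enhancers during this exit; Fgf5 is the usual marker of the epiblast after implantation. When LIF is removed, these genes are known to rise transiently and then to be shut off as the cells turn into the germ layers.

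Each value below is the intensity of a probe set, a brightness on a linear scale in arbitrary units, and levels of different probe sets cannot be set against each other. Differences are null minus Fl/Fl on the scale of log2(intensity + 4), with their standard error (SE); a fold is 2 raised to that difference and understates the change of dim probe sets. A gene was called higher or lower where limma's moderated test gave an adjusted p under 0.05 over all 18194 genes. The spread was estimated jointly from the 10 groups, and the p-values measure the spread between arrays. The labels number the arrays of a group as biological replicates but do not say whether these came from separate cultures. Array means lay between 331.8 and 363.6, and the arrays of a group correlated at r of 0.9675 to 0.9967 across genes. Jarid2 itself averaged 3299 in null cells and 3338 in Fl/Fl cells at day 0, and 1340 in null cells and 709.5 in Fl/Fl cells at day 4. The labels do not place its probe sets inside or outside the deleted part, so these levels do not check the genotypes, which are used as labelled. The null arrays were not alike. On 11 of them, from days 0 to 6, the Y-linked gene Eif2s3y stood between 594 and 981, on 5 between 217 and 365, and on 4 between 11 and 16, against 130 to 234 on the Fl/Fl arrays. On the 11 arrays with high Eif2s3y, Tmem87a read 172 to 348, against 9 to 12 on every other array, and Meg3 read 21 to 88, against 287 to 2579 on the others. All 7 markers of undifferentiated ES cells were measured. Their summed intensity at day 0 was 40711 to 56385 on the null arrays and 53705 to 57572 on the Fl/Fl arrays. At day 4 it was 13649 to 18470 on the null arrays and 8980 to 9667 on the Fl/Fl arrays, and at day 6 it was 4480 to 9141 on the null arrays and 1492 to 1905 on the Fl/Fl arrays, higher in null cells without overlap on both days. At day 8 the order of the sums was turned, with 1042 to 1551 on the null arrays and 2238 to 4845 on the Fl/Fl arrays. In Fl/Fl cells that sum was mostly Dppa5a, which averaged 2804 there and 172.5 in null cells. The 7 markers did not turn together. At day 8, 2 were called lower in null cells, Dppa5a and Esrrb, and 1 was called higher, Pou5f1 (1.70, limma adjusted p = 0.0132).

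Promoter sequences are shown for 5 of the genes because PRC2 is found mostly at promoters rich in CpG, the dinucleotide that vertebrate genomes otherwise lose. The 3 lines for Otx2, Fgf5 and Foxd3 belong to genes that were higher in null cells early or late, Zic5 to a gene with a late difference, and Cldn6 to the gene that was lower. Each is the 250 bases before a transcription start in the RefSeq annotation of mouse build GRCm38.p6, written along the gene's strand with every CpG in capitals: Otx2, chr14:48665110-48665359, minus strand, the richest in CpG of its 4 annotated windows; Fgf5, chr5:98253934-98254183, plus strand; Foxd3, chr4:99656049-99656298, plus strand; Zic5, chr14:122465659-122465908, minus strand; Cldn6, chr17:23679115-23679364, plus strand.
Otx2: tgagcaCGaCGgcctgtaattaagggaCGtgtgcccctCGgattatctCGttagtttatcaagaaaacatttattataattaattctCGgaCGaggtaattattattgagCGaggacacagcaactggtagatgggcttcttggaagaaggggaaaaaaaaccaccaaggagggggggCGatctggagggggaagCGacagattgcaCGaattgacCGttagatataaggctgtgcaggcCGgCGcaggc
Fgf5: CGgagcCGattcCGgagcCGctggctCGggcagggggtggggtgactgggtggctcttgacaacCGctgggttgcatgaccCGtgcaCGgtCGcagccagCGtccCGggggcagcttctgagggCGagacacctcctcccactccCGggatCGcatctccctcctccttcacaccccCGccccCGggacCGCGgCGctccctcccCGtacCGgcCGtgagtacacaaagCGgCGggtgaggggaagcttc
Foxd3: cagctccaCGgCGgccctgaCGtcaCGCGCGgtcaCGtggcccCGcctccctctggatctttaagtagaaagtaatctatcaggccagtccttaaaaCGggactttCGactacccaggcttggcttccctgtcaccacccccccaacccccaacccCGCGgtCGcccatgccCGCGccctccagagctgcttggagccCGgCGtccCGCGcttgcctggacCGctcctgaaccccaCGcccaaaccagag
Zic5: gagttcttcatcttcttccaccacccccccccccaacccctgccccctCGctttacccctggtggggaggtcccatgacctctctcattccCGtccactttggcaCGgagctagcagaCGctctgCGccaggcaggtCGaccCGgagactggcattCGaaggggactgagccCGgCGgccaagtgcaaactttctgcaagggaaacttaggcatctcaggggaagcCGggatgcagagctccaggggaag
Cldn6: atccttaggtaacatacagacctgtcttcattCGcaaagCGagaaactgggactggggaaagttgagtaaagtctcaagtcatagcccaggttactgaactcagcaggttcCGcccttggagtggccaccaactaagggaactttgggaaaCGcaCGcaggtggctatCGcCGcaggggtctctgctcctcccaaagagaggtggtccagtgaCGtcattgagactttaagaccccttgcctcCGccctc

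The Fgf5 window held 24 CpG and the Foxd3 window 21. These were at least as many as in 89.3% and 85.2% of the 32851 windows of this length in the table, whose median was 6. The Otx2 window held 14, the Zic5 window 11 and the Cldn6 window 9. The other Otx2 windows held 9, 8 and 6, the Sox4 window 11 and the windows of Sall2 6 and 0. The table held windows for 7 of the 10 genes, 11 in all. The windows were searched on both strands for the POU octamer ATGCAAAT, present in 1.60% of all windows, for the OTX core TAATCC (6.25%), for the SOX core CATTGT (10.7%) and for the ZIC word CCTGCTG (8.44%). No 2 of these words are contained in each other. The Otx2 window shown above held 1 OTX word, read on the opposite strand, and the Cldn6 window held 1 ZIC word, also on the opposite strand. The other 9 windows held none of the 4 words, which says only that these letters are absent there. Zic5 and Zic2 are neighbours on chromosome 14, with 0 protein-coding genes between them.

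Before LIF was withdrawn, 3 of the 10 genes were already higher in null cells: Otx2, Pou3f1 and Foxd3. Over all genes, 0.247% were called higher at day 0. Otx2 and Pou3f1 were known to be raised at day 0 when the 10 genes were chosen. The day 0 count is thus not independent of that choice. Prolonged expression at later days in null cells was known then too. The counts at later days, in the average and of falls between days are thus not independent of it either. At day 2 the count was 1, Foxd3 (0.104% of all genes). At day 4 it was 5, Otx2, Pou3f1, Foxd3, Sox3 and Sall2 (4.18% of all genes). At day 6 it was 4, Otx2, Fgf5, Zic5 and Sox3 (3.47% of all genes), and at day 8 it was 3, Otx2, Fgf5 and Zic5 (0.709% of all genes). Markers of other cell types differed at day 0 too. Of 11 trophoblast markers, 3 keratins were lower in null cells, Krt8 (-3.23; limma adjusted p = 0.0011), Krt18 (-3.21; 0.000432) and Krt7 (-2.46; 0.049), and the summed intensity of the list was 1165 to 2092 on the null arrays and 6879 to 8856 on the Fl/Fl arrays. Of 9 feeder cell and fibroblast markers, 1 was lower, the collagen Col1a1 (-2.90; limma adjusted p = 0.0194), with sums of 690 to 2556 on the null arrays and 3462 to 3463 on the Fl/Fl arrays. Their part in the day 0 differences was not tested. At none of the 5 days was a member called lower, a call that 0.929%, 0.517%, 7.43%, 6.46% and 1.80% of all genes had at days 0, 2, 4, 6 and 8. In the mean of the 5 daily differences, 8 members were higher in null cells (7.76% of all genes) and 1, Cldn6, was lower (15.5% of all genes), while Sox4 was not called. The median difference of the 10 genes was 0.67, 0.66, 1.45, 0.63 and 0.45 over the 5 days in their order; the median over all genes lay between -0.01 and 0 at each day. In RNA from whole cultures, a gene that is active in more cells and a gene that is more active per cell cannot be told apart.

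**Figure D1:**
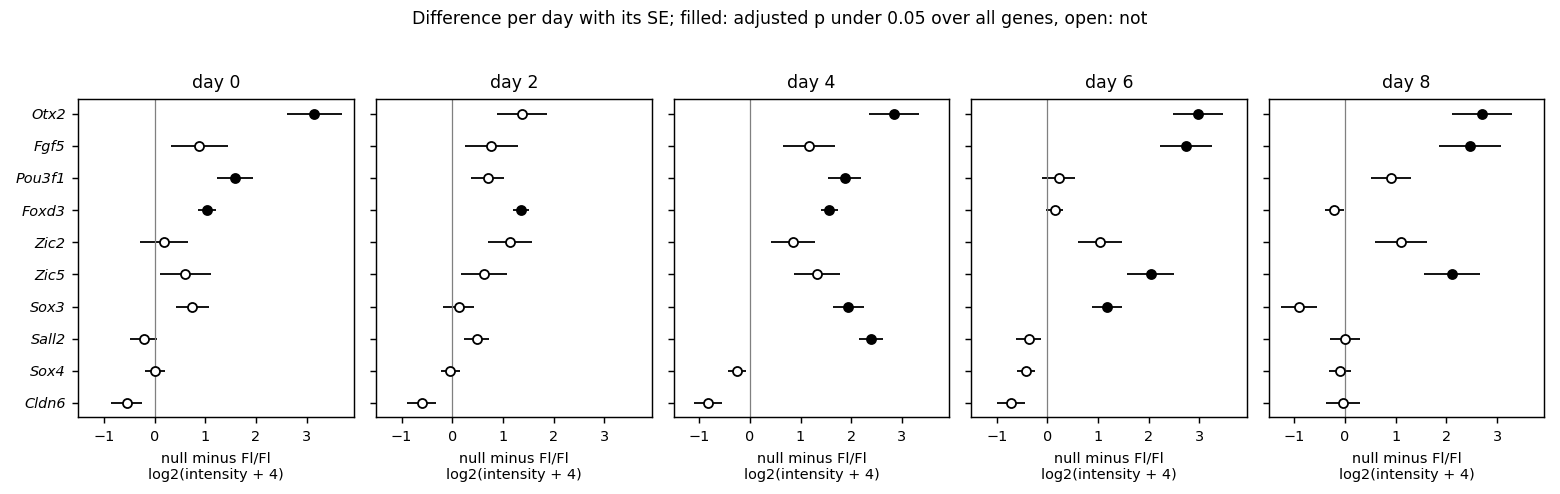
Difference between null and Fl/Fl cells for the 10 genes at each day, on the log2(intensity + 4) scale (horizontal axis, positive where null is higher); bars are SE from the limma fit, and filled points have an adjusted p under 0.05 over all 18194 genes. Otx2 lies between 1.38 and 3.15 at all 5 days, Sall2 stands out at day 4 with 2.39, and Cldn6 lies below 0 at each day, though at day 8 its -0.04 turns to 0.026 or 0.047 with other normalizations.

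Otx2, a homeobox factor of the bicoid class, showed the largest difference of the 10 genes. At day 0 its probe set read 591, 554 and 473 on the 3 null arrays, against 57 and 57 on the Fl/Fl arrays. The null level before differentiation thus came close to the 550 and 716 that Fl/Fl cells had at day 2. The difference was 3.15 ± 0.54 (SE; 8.87-fold; limma adjusted p = 0.00381). At day 2 the null arrays read 1781, 1520, 1630, 1714 and 1582, all above both Fl/Fl arrays, but the difference of 1.38 ± 0.49 did not pass (adjusted p = 0.274). In a fit of these day 2 groups alone it passed (adjusted p = 0.0136). At day 4 the null arrays read 2332, 2051, 1053, 1259 and 1286, against 152 and 288 in Fl/Fl cells. At day 6 they read 1891, 1515, 654, 968 and 905, against 160 and 117 in Fl/Fl cells. Both differences passed, with 2.84 ± 0.49 and 2.98 ± 0.49 (limma adjusted p = 0.000563 and 0.000462). At day 8 the 2 null arrays read 1101 and 151, against 67 and 53 in Fl/Fl cells. Every null array of every day, 20 of 20, was above both Fl/Fl arrays of its day. The share of all genes with this separation at every day was not computed. The day 8 difference of 2.70 ± 0.59 (limma adjusted p = 0.0116) rested on the first null array. Without it the difference was 1.29 (adjusted p = 0.231), and without the second Fl/Fl array of that day the adjusted p was 0.119. Averaged over the days, Otx2 was 6.10-fold higher in null cells (limma adjusted p = 1.89e-07).

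Pou3f1, a POU factor that is also active in neural and glial progenitors, was the second gene raised before differentiation. At day 0 it read 465, 693 and 586 on the null arrays, against 153 and 232 on the Fl/Fl arrays. The groups did not overlap, and the difference was 1.59 ± 0.36 (3.00-fold; limma adjusted p = 0.0283). This call depended on single arrays: the adjusted p was 0.106 without null replicate 2, 0.0905 without null replicate 3 and 0.261 without the first Fl/Fl array, with differences of 1.45, 1.57 and 1.29. The gene's other probe set read 422, 670 and 535 in null cells, against 80 and 194 in Fl/Fl cells, a difference of 2.06 ± 0.52 that did not pass over all probe sets (limma adjusted p = 0.0666). Foxd3, a forkhead factor needed for the maintenance of the epiblast, was dim but separated the groups too. At day 0 it read 33, 35 and 54 on the null arrays, against 16 and 19 on the Fl/Fl arrays, a difference of 1.03 ± 0.18 (2.04-fold; limma adjusted p = 0.00424). In the fit of the day 0 groups alone, with 5 arrays, Otx2 remained called and the adjusted p rose to 0.397 for Pou3f1 and 0.527 for Foxd3.

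The other 7 genes were not called at day 0, although every null array was above both Fl/Fl arrays for Fgf5, Zic5 and Sox3 as well as for the 3 genes called, 6 in all; 5.44% of all genes showed this separation. Cldn6 separated in the other direction, as 9.90% of all genes did. Fgf5 was near the floor of the arrays at day 0, with 24, 11 and 17 in null cells and 5 and 10 in Fl/Fl cells, and its difference of 0.88 ± 0.56 did not pass (limma adjusted p = 0.598). Zic5 read 322, 339 and 375 in null cells and 295 and 171 in Fl/Fl cells (0.61 ± 0.50; limma adjusted p = 0.748). Sox3 read 50, 62 and 89 in null cells and 38 and 37 in Fl/Fl cells, a difference of 0.74 ± 0.33 (limma adjusted p = 0.38). Of the 3 null arrays at day 0, replicates 2 and 3 belong to the set with high Eif2s3y, and replicate 1 to the middle set. On replicate 1 alone Otx2 was 3.29, Pou3f1 1.29 and Foxd3 0.79 above the Fl/Fl mean, against 3.08, 1.74 and 1.15 on the other two. With that array as the day 0 null group none of the 3 passed, at limma adjusted p of 0.126 for Otx2, 0.207 for Pou3f1 and 0.0741 for Foxd3.

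**Figure D2:**
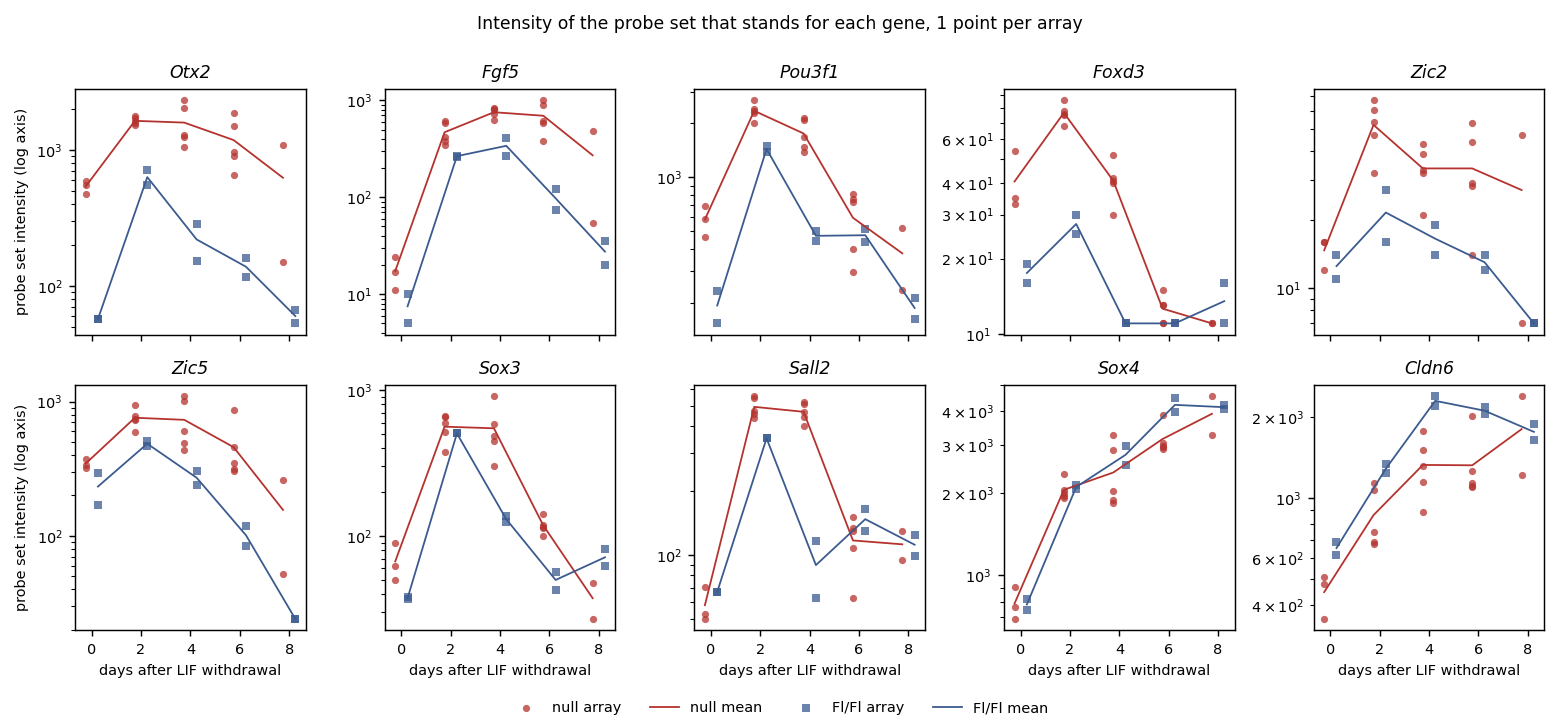
Intensity of each gene's probe set on every array (log axis, arbitrary units) against days after LIF withdrawal, with null arrays as circles left of each day and Fl/Fl arrays as squares right of it; lines join group means. Otx2, Fgf5 and Zic5 stay above Fl/Fl on all 20 null arrays, Pou3f1, Sox3 and Sall2 separate most at day 4, and Sox4 climbs in both genotypes.

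Fgf5, the secreted factor that marks the epiblast after implantation, appeared in both genotypes at day 2 and then stayed on in null cells. At day 2 it read 588, 611, 414, 383 and 347 on the null arrays, against 268 and 263 on the Fl/Fl arrays. At day 4 the null arrays read 824, 786, 807, 630 and 723, against 266 and 413 in Fl/Fl cells. These groups did not overlap, but neither difference passed (0.77 and 1.17; limma adjusted p = 0.742 and 0.174); the day 4 one passed without either null array of day 8 (adjusted p = 0.0216 each) and in a fit of the day 4 groups alone (adjusted p = 0.0257). At day 6 Fgf5 read 1002, 889, 378, 581 and 617 in null cells, against 121 and 74 in Fl/Fl cells. Null levels lay near those of day 4 and Fl/Fl levels below them, and the difference was 2.74 ± 0.52 (6.68-fold; limma adjusted p = 0.00148; 0.0645 without the second Fl/Fl array of that day). At day 8 the null arrays read 488 and 54, against 35 and 20 in Fl/Fl cells. The difference of 2.47 ± 0.62 passed (limma adjusted p = 0.0332) but was 0.92 without the first null array (adjusted p = 0.481). Leaving out either Fl/Fl array of day 8 also ended the call (adjusted p = 0.0535 and 0.313). The second Fgf5 probe set read at most 4 in both genotypes at day 0. It was called at day 4 (2.10 ± 0.53; limma adjusted p = 0.0138 over all probe sets) and at day 6 (4.16 ± 0.53; 17.8-fold; adjusted p = 2.71e-05).

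Zic5 is a zinc finger factor of the odd-paired family that is also used in the dorsal neural tube. Like Fgf5 it was called higher in null cells at days 6 and 8. Its highest daily mean, unlike that of Fgf5, was at day 2 in both genotypes. At day 4 it read 1019, 1105, 489, 440 and 607 on the null arrays, against 240 and 302 on the Fl/Fl arrays, with no overlap and a difference of 1.33 ± 0.46 (limma adjusted p = 0.068). That difference passed when a null array of day 8 (adjusted p = 0.0169 for either) or the first null array of day 6 (adjusted p = 0.0441) was left out, and with the replicate block (1.71; adjusted p = 0.0131). At day 6 Zic5 read 862, 463, 302, 313 and 349 in null cells, against 118 and 84 in Fl/Fl cells. At day 8 it read 260 and 52 in null cells, against 24 and 24 in Fl/Fl cells. By the probe set that stands for Zic5, all 20 null arrays were above both Fl/Fl arrays of their day. The day 6 difference was 2.04 ± 0.46 (4.10-fold; limma adjusted p = 0.00615; 0.133 without the second Fl/Fl array). The day 8 difference was 2.12 ± 0.55 (limma adjusted p = 0.0406), which 11 of the 30 arrays could undo when left out. These were null replicate 1 of day 8 (1.00; adjusted p = 0.486), both Fl/Fl arrays of day 8 (0.133 and 0.209), and, at adjusted p of 0.05 to 0.0522, null replicates 2 and 3 of day 0, 2, 4 and 5 of day 2 and 5 of day 4 and both Fl/Fl arrays of day 2. Of its 2 other probe sets, one was called at days 4, 6 and 8 (1.33, 2.02 and 2.38; limma adjusted p = 0.0104, 0.000339 and 0.000607) and the other at day 4 (1.69; adjusted p = 0.0432). Zic2, the neighbouring gene of the same family, was dim, between 7 and 67 on all arrays. Its highest array was null at day 2, and 17 of the 20 null arrays were above both Fl/Fl arrays of their day. No single day passed, and the average over days did (0.86 ± 0.21; 1.82-fold; limma adjusted p = 0.00434). Without a null array of day 8, Zic2 passed at day 6 (adjusted p = 0.0413 for either array) and, without the second one, at day 8 (2.21; adjusted p = 0.00343).

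A second set of genes had likewise peaked in both genotypes at day 2 and stayed high in null cells at day 4, but was not called at day 8. Sall2, a zinc finger factor of the spalt family, read 557, 547, 437, 457 and 475 on the null arrays at day 2, against 352 and 352 on the Fl/Fl arrays. At day 4 the null arrays read 404, 508, 467, 445 and 520, against 63 and 116 in Fl/Fl cells. Null cells were then still far above their day 0 level of 50, 71 and 53, and Fl/Fl cells were close to theirs of 67 and 67. The day 4 difference was 2.39 ± 0.24 (5.25-fold; limma adjusted p = 1.51e-06). At day 6 Sall2 read 130, 133, 63, 108 and 150 in null cells and 164 and 130 in Fl/Fl cells, and the groups overlapped (-0.37 ± 0.24; adjusted p = 0.479). At day 8 the difference was 0.00 to 2 decimals on the log2 scale, with a 95% interval of -0.61 to 0.61.

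Sox3, an X-linked SOXB1 factor of the epiblast and the neural plate, followed the same course to day 4. At day 2 its levels overlapped, with 657, 379, 514, 599 and 663 in null cells and 505 and 506 in Fl/Fl cells. On day 4 the arrays read 588, 915, 446, 304 and 488 in null cells, against 124 and 137 in Fl/Fl cells (1.95 ± 0.30; 3.85-fold; limma adjusted p = 0.000174; 0.0507 in a fit of the day 4 groups alone). At day 6 it had dropped in both and read 141, 100, 116, 114 and 120 in null cells, against 57 and 43 in Fl/Fl cells. The day 6 difference of 1.18 ± 0.30 passed (limma adjusted p = 0.0135), and not without the first (0.0535) or the second (0.234) Fl/Fl array of that day. At day 8 the order turned, with 48 and 27 in null cells and 81 and 62 in Fl/Fl cells, a difference of -0.90 ± 0.36 that did not pass (limma adjusted p = 0.213). The gene's other probe set read 4 to 21 on all arrays, near the floor.

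Pou3f1 after withdrawal read 2693, 2341, 2007, 2296 and 2417 on the null arrays of day 2, against 1489 and 1390 on the Fl/Fl arrays. At day 4 it read 1477, 1392, 2089, 1680 and 2147 in null cells, against 501 and 442 in Fl/Fl cells. No array overlapped at either day; the day 4 difference was 1.87 ± 0.33 (3.65-fold; limma adjusted p = 0.000613) and that of day 2 did not pass (0.70 ± 0.33; adjusted p = 0.502). At day 6 the groups overlapped, with 295, 397, 724, 754 and 803 in null cells and 435 and 515 in Fl/Fl cells (0.22 ± 0.33; limma adjusted p = 0.983). The second probe set gave 2.53 ± 0.47 at day 4 (limma adjusted p = 0.00155 over all probe sets) and was not called at the other days. At day 6 that probe set read 163, 193, 613, 709 and 642 in null cells, against 153 and 226 in Fl/Fl cells, with 3 null arrays above both Fl/Fl arrays and 0 below both (1.05 ± 0.47; adjusted p = 0.227). Foxd3 at day 2 read 76, 75, 78, 86 and 68 in null cells, against 25 and 30 in Fl/Fl cells. The day 4 arrays read 30, 41, 40, 42 and 52 in null cells, against 11 and 11 in Fl/Fl cells. Its differences were 1.36 ± 0.16 and 1.57 ± 0.16 (limma adjusted p = 0.000152 and 1.94e-06), with no array of one genotype among those of the other. The lowest value of this probe set on any array was 11, so Fl/Fl cells were at its floor by day 4. From day 6 on it was 11 to 16 on every array of both genotypes.

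Whether null cells let go of these genes later was tested as the change between consecutive days. Between days 2 and 4, 1 member fell in null cells, Foxd3 (2.10% of all genes fell), and 4 fell in Fl/Fl cells, Pou3f1, Foxd3, Sox3 and Sall2 (4.97% of all genes). Between days 4 and 6, the 4 genes Pou3f1, Foxd3, Sox3 and Sall2 fell in null cells (6.16% of all genes) and 1, Sox3, fell in Fl/Fl cells (1.60% of all genes), where Foxd3 was already at its floor and had no room to fall. Sall2 at day 4 minus day 2 was -0.08 ± 0.18 in null cells and -1.99 ± 0.29 in Fl/Fl cells, and the difference between these values passed (1.91 ± 0.35; limma adjusted p = 0.00503; 0.390% of all genes passed in this direction). Sox3 over the same interval gave -0.10 ± 0.23 in null cells and -1.92 ± 0.36 in Fl/Fl cells (difference 1.82 ± 0.42; limma adjusted p = 0.0374). For Pou3f1 the values were -0.44 ± 0.25 in null cells and -1.60 ± 0.39 in Fl/Fl cells, and the difference between them did not pass (limma adjusted p = 0.327). From day 4 to day 6 the order was the reverse for Sall2, which gave -2.02 ± 0.18 in null cells and 0.74 ± 0.29 in Fl/Fl cells (difference -2.76 ± 0.35; limma adjusted p = 6.05e-05; 0.890% of all genes passed in this direction). Foxd3 fell by 1.43 ± 0.12 in null cells and stood at 11 in Fl/Fl cells on both days, so its changes cannot be compared over this interval. Between days 6 and 8, 3 members fell in null cells, Fgf5, Zic5 and Sox3 (5.33% of all genes), and 0 in Fl/Fl cells, where 1.80% of all genes fell and where Fgf5, Pou3f1 and Zic5 had unadjusted p of 0.0126, 0.00267 and 0.00254. For Sox3 the changes of this last interval differed (-2.08 ± 0.47; limma adjusted p = 0.0264; 0.665% of all genes). Over all days, limma's F test found that the genotype difference itself changed for Foxd3 (adjusted p = 0.000135), Sox3 (0.00381) and Sall2 (9.41e-05), 3 of the 10 genes (4.94% of all genes); for Foxd3 that test takes in days on which one or both genotypes were at the floor. For Otx2 it did not pass (adjusted p = 0.508).

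**Figure D3:**
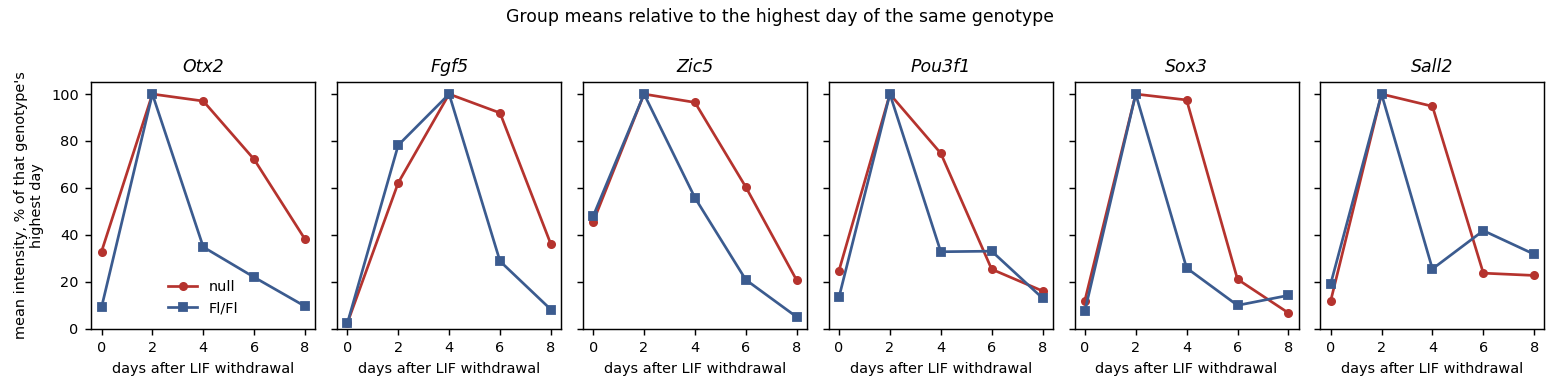
Mean intensity of 6 genes at each day as a percentage of the highest daily mean in the same genotype, with null as circles and Fl/Fl as squares. At day 4 Otx2, Zic5, Sox3 and Sall2 in null cells lie above 90% of their highest day, while in Fl/Fl cells Zic5 is at 55.8% and the others lie at or below 34.8%.

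Set against the highest daily mean of the same genotype, which takes out the overall difference in level, Otx2 at day 4 was at 97.0% of its peak in null cells and 34.8% in Fl/Fl cells. At day 6 it was at 72.1% in null cells and 21.9% in Fl/Fl cells. Fgf5 peaked at day 4 in both and at day 6 was at 92.0% in null cells and 28.7% in Fl/Fl cells. These percentages are of means over 2 to 5 arrays and carry no test of their own; in the limma fit the genotypes' changes differed for Otx2 by 1.46 ± 0.70 between days 2 and 4 (adjusted p = 0.486) and for Fgf5 by 1.57 ± 0.73 between days 4 and 6 (adjusted p = 0.48), neither of which passed. By day 2, 9 members had risen above day 0 in null cells (2.40% of all genes) and 6 in Fl/Fl cells (1.24% of all genes). These 2 counts rest on unlike numbers of arrays, 5 and 3 in null cells and 2 and 2 in Fl/Fl cells. The rise itself differed between genotypes for 0 members (0.0550% of all genes rose more in null cells and 0.0220% less). Fgf5 rose most in both, by 4.48 ± 0.45 in null cells and 4.59 ± 0.62 in Fl/Fl cells. At day 4, 7 members were above day 0 in null cells (6.36% of all genes) and 6 in Fl/Fl cells (8.01% of all genes). Otx2 at day 2 was 1.61 ± 0.43 above day 0 in null cells, where it began high, and 3.37 ± 0.59 above it in Fl/Fl cells; the difference between these rises did not pass over all genes (-1.77 ± 0.73; unadjusted p = 0.025).

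Sox4 and Cldn6 behaved otherwise. Sox4, a SOXC factor that many progenitors express as they differentiate, climbed in both genotypes. At day 0 it read 690, 906 and 762 on the null arrays and 817 and 743 on the Fl/Fl arrays. At day 8 it read 3274 and 4558 in null cells and 4210 and 4072 in Fl/Fl cells. The groups overlapped at both days, no day was called, and the average difference was -0.16 ± 0.09 (limma adjusted p = 0.206). The rise from day 0 to day 8 was 2.30 ± 0.20 in null cells and 2.40 ± 0.22 in Fl/Fl cells. Of the 8 probe sets of Sox4, 2 lay at 2 to 3 on every array, and the other 5 beside the one used had positive average differences between 0.06 and 0.18, none of them called. Cldn6, a claudin of embryonic epithelia, was the member lower in null cells. At day 4 it read 1768, 1511, 1317, 887 and 1146 on the null arrays, against 2391 and 2192 on the Fl/Fl arrays. At day 6 it read 1109, 2007, 1136, 1096 and 1261 in null cells, against 2048 and 2165 in Fl/Fl cells. Of the 20 null arrays, 19 were below both Fl/Fl arrays of their day, the exception being the second null array of day 8, which read 2381, against 1638 and 1879 in Fl/Fl cells. Averaged over the days, Cldn6 was lower in null than in Fl/Fl cells by 0.55 ± 0.13 on the log2 scale (1.46-fold; limma adjusted p = 0.00476). Without the null arrays with high Eif2s3y the difference was -0.34 (adjusted p = 0.17). When the null groups held just the high-Eif2s3y arrays, which cover days 0 to 6, Cldn6 was lower at each of these days, with differences of -0.61, -0.86, -1.05 and -0.86 (limma adjusted p = 0.0336, 0.00395, 0.000263 and 0.00141). With all arrays no single day passed; day 4 passed without the first null array of that day (adjusted p = 0.0334), the second null array of day 6 (0.0363) or either null array of day 8 (0.0333), and day 6 passed without its second null array (0.0329).

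At day 2, 7 members had every null array above both Fl/Fl arrays (4.51% of all genes) and at day 4, 8 did (10.4% of all genes), all but Sox4 and Cldn6. At day 6 the count was 4 (10.2%) and at day 8 it was 4 (8.48%). Every null array was below both Fl/Fl arrays for Cldn6 at day 2 (8.39%) and day 4 (14.3%), for Sox4 and Cldn6 at day 6 (14.7%) and for Sox3 at day 8 (16.8%).

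The sets of null arrays defined by Eif2s3y differed in the size of these differences. Otx2 at day 4 was 2.49 above Fl/Fl on the 3 arrays with high Eif2s3y, and 3.45 and 3.27 on the other 2. At day 6 it was 2.57 on the high arrays and 3.75 and 3.43 on the other 2. Fgf5 at day 6 showed the same order, with 2.39 on the high arrays and 3.35 and 3.18 on the others. So did Zic5 at day 4, with 0.90 on the high arrays and 1.91 and 2.02 on the others, and at day 6, with 1.65 on the high arrays and 3.06 and 2.17 on the others. Sox3 at day 4 was 1.61 above Fl/Fl on the high arrays and 2.14 and 2.77 above it on the others. Cldn6 lay further below Fl/Fl on the high arrays at day 2, at -0.86 against -0.18 and -0.26 on the others, and at day 4, at -1.05 against -0.37 and -0.60. Pou3f1 at day 6 went the other way: the high arrays read 724 to 803, above both Fl/Fl arrays, and the others read 295 and 397, below both. The 0.22 given above for this probe set at day 6 is thus a mean of arrays on either side of Fl/Fl, and with the high arrays alone it was 0.68 (limma adjusted p = 0.0114). The other Pou3f1 probe set was also highest on the high arrays, but on its other 2 null arrays, at 163 and 193, it lay between the Fl/Fl arrays and not below them. Sox4 on the high arrays, by the probe set that stands for it, was lower than in Fl/Fl cells at day 4 (-0.52, limma adjusted p = 0.000364). So it was at day 6 (-0.51, adjusted p = 0.000492). Its other probe sets were fitted with all arrays only. Leaving out those at 2 to 3, they gave -0.04 to 0.39 at day 4 and 0.14 to 0.51 at day 6, none called. Further calls with the high arrays alone, on differences that had not passed with all arrays, were Sox3 at day 0 (0.92; limma adjusted p = 0.0138), Otx2, Pou3f1 and Zic2 at day 2 (1.38, 0.63 and 1.21; 0.00298, 0.0346 and 0.0163), and Fgf5 and Zic5 at day 4 (1.102 and 0.904; 0.0163 and 0.00631). With the other null arrays alone, Otx2 kept its calls at day 4 (3.36; adjusted p = 0.0263) and day 6 (3.59; adjusted p = 0.0394), while Fgf5, Zic5 and Sox3 at day 6 had adjusted p of 0.0703, 0.066 and 0.111. Their differences were then 3.26, 2.62 and 1.20, no smaller than the 2.74, 2.04 and 1.18 with all arrays, and the null group of the day was 2 arrays in place of 5. The 2 null arrays of day 8 also belong to different sets: the one with the higher Otx2, Fgf5, Zic5 and Zic2 is of the middle set and the other of the set near the floor. The ratio of 3' to 5' actin probe sets, a measure of RNA integrity, was 1.288 to 1.43 on the high arrays, 1.545 to 2.024 on the other null arrays and 1.48 to 2.037 on the Fl/Fl arrays; its part in the results was not tested.

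**Figure D4:**
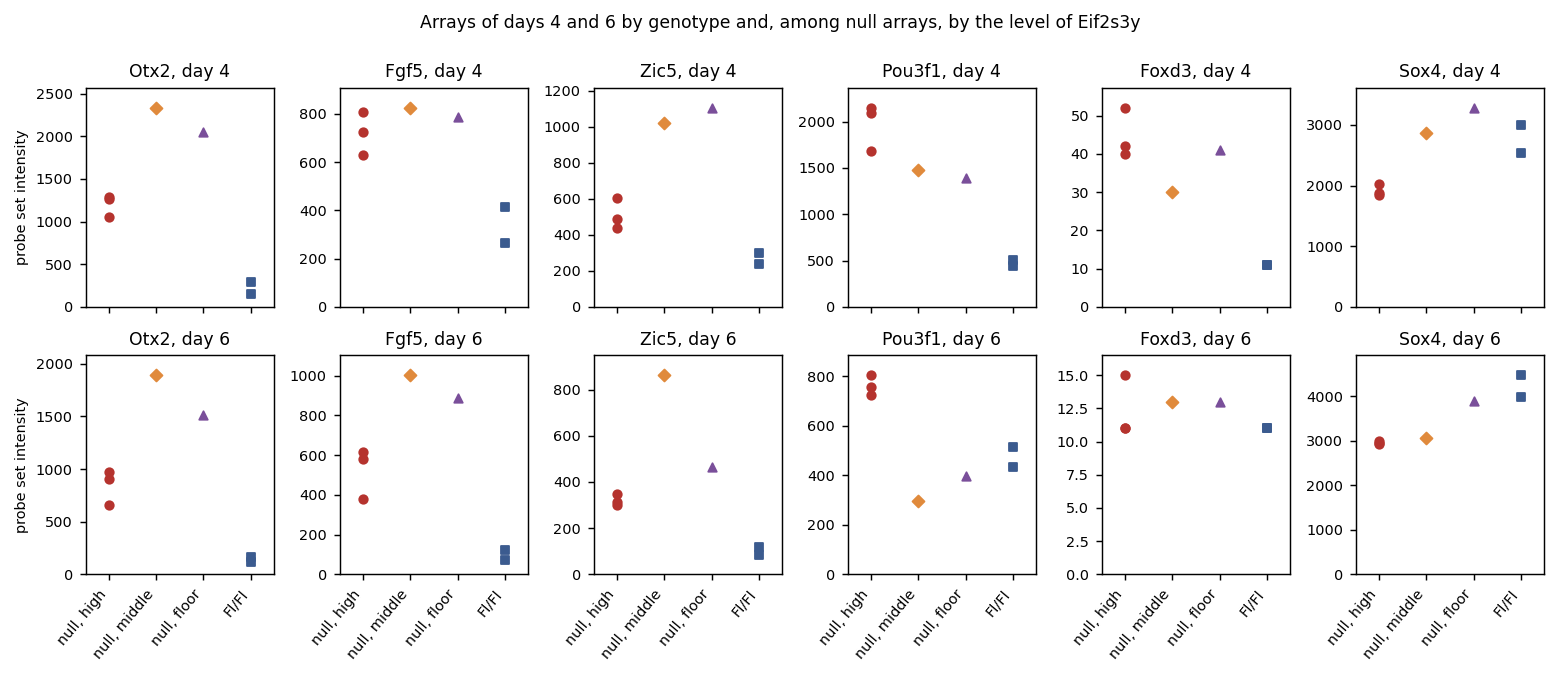
Intensity of 6 genes (linear axis from 0) on each array of day 4 (top) and day 6 (bottom), with null arrays split by the level of Eif2s3y (high, middle, near the floor) and Fl/Fl arrays at the right. Otx2 is above Fl/Fl in all 3 sets at both days, whereas the Pou3f1 probe set plotted is at day 6 above Fl/Fl on the high arrays and below it on the other 2, which the gene's second probe set does not show.

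Other genes of the same states were taken from a list of 15, of which 14 were measured. Of these, 0 were called at day 0, 1 was higher at day 2 (Lef1), 6 were higher and 2 lower (Cdh2 and Fgf8) at day 4, 7 were higher at day 6 and 3 at day 8, and over the days 10 were higher and 1 lower in null cells. Their median difference over the days was 0.66, against 0 over all genes. The 3 with the smallest p were Pim2, a kinase (2.95-fold higher; limma adjusted p = 9.71e-06), Dnmt3b, a de novo DNA methyltransferase (2.37-fold; 2.48e-05), and Nodal, a TGF-beta ligand of the epiblast (1.64-fold; 0.000562). Pim2 passed at days 4 and 6 (2.35 and 3.55), Dnmt3b at days 4, 6 and 8 (2.05, 1.91 and 1.63), and Nodal at days 6 and 8 (1.12 and 2.38). The summed intensity of the 14 genes at day 4 was 28623 to 34216 on the null arrays and 14762 to 16320 on the Fl/Fl arrays. Lef1, Cdh2 and Fgf8 were named after their values were seen. So were Dppa5a above and Fgf4, Otx1, Pou3f2, Pou3f3, Nanog, Nes, Sox1, Pax6, Olig2 and En1 below. Of the 14 naive pluripotency genes, 1 was higher over the days, Fgf4, a growth factor of pluripotent cells, and 5 were lower. Esrrb, Tfcp2l1 and Klf4, nuclear factors of the naive state, had the smallest p (1.97, 2.33 and 2.34-fold lower; limma adjusted p = 0.000137, 0.000257 and 0.000569). At day 0, when Otx2 was 8.87-fold higher in null cells, none of the 14 naive genes passed in limma, and their median difference was -0.02. Their single differences ran from -1.17, that of Tfcp2l1, to 0.37. With 3 null and 2 Fl/Fl arrays, not passing does not show that the levels were equal. The summed intensity of the 14 naive genes at day 0 was 16009 to 20475 on the null arrays and 17925 to 20649 on the Fl/Fl arrays.

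Close relatives of the 10 genes did not move as a block. Of 22 measured paralogs, 3 were higher over the days and 4 lower. Sox2, the SOXB1 partner of Sox3, was 2.18-fold higher (limma adjusted p = 7.83e-06) and Sall1 was 2.28-fold higher (1.55e-05), while Cldn4, a claudin, was 3.45-fold lower (1.87e-05). Sox2 passed at days 4 and 6 (2.20 and 2.34; limma adjusted p = 3.07e-05 and 1.9e-05). It is also one of the ES cell markers, of which Pou5f1 (Oct4; 3.19; 8.84e-07) and Nanog (2.78; 0.000196) were higher at day 6 as well. Otx1, the closest relative of Otx2, had an average difference of 0.00 (adjusted p = 1), and Pou3f3 had -0.01 (adjusted p = 0.72). Their SE were 0.0293 and 0.0161, and probe sets without signal would give values like these as well. Pou3f2 was called lower (-0.14 ± 0.05, limma adjusted p = 0.0421).

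Since several of these factors also serve in neural tissue, markers of other cell types were read beside them. Of 14 measured neuroectoderm markers, 0 were called at day 0, 1 was higher at each of days 2, 4 and 6, 1 was lower at day 6 and 2 at day 8, and over the days 1 was higher and 3 lower. Over the days Gbx2 was higher (0.79, limma adjusted p = 0.00937). Lower over the days were the neuronal tubulin Tubb3 (-1.07, limma adjusted p = 2.97e-05), Sox21 (-0.275, 0.0107) and Nes (-0.523, 0.0381). Those lower on single days were Tubb3 at days 6 and 8 (-2.04 and -2.49; limma adjusted p = 0.000202 and 0.000311) and the homeobox gene En1 at day 8 (-0.47; 0.0341). The markers higher on single days were Sox1 at day 2 (1.57, limma adjusted p = 0.0294), Pax6 at day 4 (0.68, 0.0444) and Olig2 at day 6 (3.28, 0.000106). Of these single-day calls, 2 were on dim genes. Pax6 averaged 11.4 in null and 5 in Fl/Fl cells at day 4, and En1 averaged 6 and 10 at day 8. The summed intensity of the 14 markers at day 4 was 704 to 1141 on the null arrays and 1031 to 1075 on the Fl/Fl arrays. These sums overlapped, but they were mostly Nes and Olig2. At day 4 Nes averaged 300.2 in null and 571 in Fl/Fl cells, and Olig2 averaged 287.8 and 266.5. Dim markers such as Pax6 hardly enter the sums. Of the 10 markers of primitive streak and mesoderm, 5 were lower in null cells at day 4, with sums of 291 to 866 on the null arrays and 3887 to 4209 on the Fl/Fl arrays; at day 6 the sums were 3682 to 16231 and, in Fl/Fl cells, 4150 to 5488, with 0 called. Of 11 trophoblast markers, 8 were lower over the days, and at day 4 the sums were 1835 to 4942 in null cells and 26764 to 29124 in Fl/Fl cells. Of 9 fibroblast markers, 6 were lower over the days, with sums at day 6 of 2372 to 6659 in null cells and 16331 to 20201 in Fl/Fl cells. Of 10 endoderm markers, 1 was lower. The part of these other cell types in the levels of the 10 genes was not tested.

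The 10 genes fell into courses that can be described by the likeness of their 10 group means on the log2 scale, given as a description over 10 points with no test. Otx2 was most like Zic2 (r = 0.90) and Pou3f1 (0.87), Pou3f1 was most like Sox3 (0.90), Sox3 was also like Sall2 (0.87), and Sox4 was most like Cldn6 (0.90). Among the 7851 other genes with a highest group mean of at least 100, the closest to Otx2 were Chchd1 (r = 0.945), Selenoi (0.942) and Tlcd1 (0.934). The closest to Zic5 were Gas2l3 (0.991), Tcfl5 (0.979) and Aimp2 (0.975). Pphln1 was closest to Fgf5 (0.97), Rbbp6 to Pou3f1 (0.957), Pex7 to Foxd3 (0.966), Zfp623 to Sox3 (0.968), Plekha1 to Sall2 (0.933), Chchd1 to Zic2 (0.961), Ptpn13 to Sox4 (0.982) and Marchf8 to Cldn6 (0.988).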

How the data were processed

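Per the labels' protocols, biotin-labelled cRNA of 30 mouse ES cell samples was hybridized to Affymetrix arrays, each sample to its own. The deposited values are probe set intensities on a linear scale, in whole numbers from 1 to 68951; how they were corrected for background, normalized and summarized is not given in the sources used. Groups were taken from the labels. Probe sets were named from the platform annotation: 34958 of 45101 name 1 gene, 932 name several and 9211 none, and those last 2 kinds were left out. For a gene with several probe sets, the one with the highest mean log2 value stood for it. Values were taken as log2(intensity + 4), 4 being the 5th percentile. A mean for each of the 10 groups was fitted to the 30 arrays with limma 3.58.1 (R 4.3.3; 20 residual degrees of freedom), with moderated two-sided tests and Benjamini-Hochberg adjustment over 18194 genes, threshold 0.05; a second fit over the 34958 probe sets gave each probe set its own value. The script was tested on simulated data. Depth is not defined for arrays; the number of arrays, 2 in 6 of the 10 groups, limits the precision.

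The named genes are the 10 members, the 3 genes most like each, and up to 3 genes per list with the smallest p. The members and lists were chosen with earlier results of these data known. Among them were the raised Otx2 and Pou3f1 at day 0 and prolonged expression later. The split by Eif2s3y (high above 400, middle above 100) was also known. Alternatives changed the pseudocount (1 or 32), the normalization, the filter on dim genes, the probe set rule, the arrays in the fit and the replicate block.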

Additional observations from a re-analysis of the deposited data

Results flagged for a closer look

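Sox4 on the second null array of day 6, with 3886, and Cldn6 on the same array, with 2007, stood far from the other 4 null arrays of that day, which read 2917 to 3067 and 1096 to 1261. These were 2 of the 30 groups of arrays tested for such a gap, and chance alone flags about 5% of groups. The genotype difference changed between days for Foxd3 (limma F test, adjusted p = 0.000135), Sox3 (0.00381) and Sall2 (9.41e-05); Foxd3 was at its floor in Fl/Fl cells from day 4 to day 6 and near it in null cells from day 6.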

How the results depend on the processing

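The number of members higher in null cells was 8 in every alternative run that gave an average and 5 to 7 at day 4, not always the same members: with only the groups compared, Sox3 lost its day 4 call (adjusted p = 0.0507) and Fgf5 gained one (0.0257). Fitting only the groups compared left 1 member higher on day 0, 2 on day 2 and 0 on day 8 (in limma; unadjusted p of 0.00017, 0.000692 and 0.000946 for Otx2, Fgf5 and Zic5 in the fit of all groups), and 2 falling between days 2 and 4 in Fl/Fl cells. Without null arrays with high Eif2s3y, 0 were higher at day 0, 1 at day 6 and 0 at day 8, where none of those arrays lies and the differences were the same (2.70, 2.47 and 2.12 for Otx2, Fgf5 and Zic5) with adjusted p of 0.11, 0.179 and 0.134; with only those arrays, 4 were higher at day 2. A pseudocount of 32, or the mean over probe sets, left 1 higher at day 8. The 1 fall between days 4 and 6 in Fl/Fl cells became 0 with pseudocount 32, the mean over probe sets, the replicate block, only the groups compared and without the high arrays, and 3 with the high arrays only. Leaving out each array in turn gave 2 to 3 members higher on day 0, 1 to 1 on day 2, 5 to 7 on day 4, 1 to 5 on day 6, 0 to 4 on day 8 and 8 to 8 averaged, 3 to 7 in the F test, 6 to 9 above day 0 at day 4 in null cells and 4 to 6 in Fl/Fl cells, 1 to 1 falling between days 2 and 4 in null cells and 3 to 5 in Fl/Fl cells, and 4 to 4 between days 4 and 6 in null cells and 0 to 2 in Fl/Fl cells. Day 6 was lowest without the second Fl/Fl array of that day (1), and day 8 without the first null array (0) or the first (1) or second (0) Fl/Fl array of that day. The F test was highest without the first (5) or second (7) null array of day 8.

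Directions turned for uncalled values alone. Pou3f1 at day 6 was -0.031 with the replicate block and -0.463 without the high arrays, and Sox3 at day 2 was -0.018 without them. Sall2 at day 8 was 0 with pseudocount 32, 0.138 with quantile normalization, 0.089 when centred on the 75th percentile, and -0.214 to 0.212 with single arrays left out. Cldn6 at day 8 was 0.026 and 0.047 with these 2 normalizations and -0.525 to 0.44 with single arrays left out. Sox4 at day 0 was -0.025 with quantile normalization, -0.174 without the high arrays and -0.103 to 0.092 with single arrays left out. Sox4 at day 2 was 0.055 centred, 0.324 as the mean over probe sets, 0.141 with the replicate block and 0.025 without the high arrays. Sox4 at day 4 was 0.129 as the mean over probe sets and 0.154 without the high arrays; with the mean it was 0.136 at day 6 and 0.072 averaged, and at day 8 it ran from -0.338 to 0.138 with single arrays left out. The causes were not tested.

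Centring on the 75th percentile moved the median of all genes by 0.065 to 0.147 and the split of calls over all genes: averaged, 6176 higher and 2011 lower, against 1411 and 2813 as deposited and 2051 and 2133 after quantile normalization. At day 4 it gave 1388 and 1100 (760 and 1352 as deposited), at day 6 1009 and 1018 (631 and 1175; 914 and 1104 with quantile normalization), at day 2 22 and 59 (19 and 94) and at day 8 156 and 252 (129 and 328; 211 and 283). Replicate numbers do not pair the samples: deviations of same-numbered arrays correlated between -0.218 and 0.284. Small differences were not detectable with 2 arrays in 6 groups, nor where Foxd3 lay at or near its floor, from day 4 on in Fl/Fl cells and from day 6 on in null cells.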
